A study of Mus musculus with 12 samples.

Results

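The genes described here are the 10 that carry the lipopolysaccharide (LPS) signal from the cell surface to the kinases below Toll-like receptor 4 (TLR4): the LPS co-receptors Cd14 and Ly96, the TIR adaptors Myd88, Tirap, Ticam1 and Ticam2, and the IRAK family Irak1, Irak2, Irak3 and Irak4. They were taken by symbol, by a rule that used no measured value, from 55335 genes in the table. All 10 passed the filter on low values, as did 12622 genes in all. RNA was sequenced in 12 libraries of mouse bone marrow-derived macrophages (BMDMs), 3 in each of 4 groups. Wild-type and Nlrp3-/- cells were each sequenced as untreated controls and after LPS+ATP, a co-stimulation in which LPS readies the inflammasome and extracellular ATP sets it off. The sample labels give LPS for 4 hours followed by ATP for 30 min, and the methods of the study give longer times for both steps. The same methods describe the BMDMs as adherent cells grown from bone marrow of young adult C57BL/6 mice with macrophage colony-stimulating factor. They list the wild-type mice and the constitutive Nlrp3 knockout mice under different suppliers, and name no littermate controls. The labels do not say whether the libraries of a group came from separate mice or cultures, so the p-values measure only the spread between these libraries.

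CD14 binds LPS at the membrane and passes it to the complex of TLR4 and MD-2, the protein encoded by Ly96. The receptor then signals along 2 arms. MyD88, recruited through the bridging adaptor TIRAP, gathers IRAK4, IRAK1 and IRAK2 into the Myddosome and leads to NF-kB and inflammatory cytokines, while TRIF (Ticam1), recruited through TRAM (Ticam2), leads to interferon regulatory factors and type I interferon. IRAK-M, the product of Irak3, lacks the kinase activity of IRAK1 and IRAK4 and is known as a brake on the pathway in macrophages.

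Expression is given as FPKM, fragment counts corrected for the length of the gene and the size of the library, so levels can be compared between genes. Differences were tested with limma on log2(FPKM + 1), a scale on which changes of low genes appear smaller than they are. A gene was counted as changed at a Benjamini-Hochberg adjusted p under 0.05 over the 12622 genes and as a differentially expressed gene (DEG) when the log2 difference was also at least 1 in either direction. Values after ± are SDs over 3 libraries and intervals are 95% confidence intervals.

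Nlrp3 was between 9.24 and 33.7 FPKM in the 6 wild-type libraries and listed at 0 in the 6 Nlrp3-/- libraries. Library sums of FPKM spanned 283278 to 299393, and the depth relative to the shallowest library, taken from the spacing of low values, spanned 1.000 to 1.218. The genotypes also differed in sex: Xist was at most 0.0416 FPKM in wild-type and 32.8 to 56.3 FPKM in Nlrp3-/-, and 4 Y-linked genes (Uty, Kdm5d, Ddx3y and Eif2s3y) stood at 0 in Nlrp3-/- and above 0 in wild-type, in 6 libraries each. Nnt, a gene known to be partly deleted in the C57BL/6J substrain, was 4.09 to 10.3 FPKM in the 6 wild-type libraries and 0.670 to 1.47 FPKM in the 6 Nlrp3-/- libraries. Sex, the Nnt difference and Nlrp3 genotype therefore cannot be told apart in any genotype comparison. The macrophage markers Adgre1, Csf1r, Cd68, Itgam, Lyz2 and Mertk were present in every group, and their summed FPKM was 19820 to 20990 in wild-type control, 11060 to 11130 in wild-type LPS+ATP, 18940 to 19180 in Nlrp3-/- control and 10450 to 10700 in Nlrp3-/- LPS+ATP. Lyz2 made up most of these sums, and other macrophage markers moved with genotype, though not all in one direction. Mertk was higher in Nlrp3-/- in control, at 34.1 ± 1.30 FPKM against 32.4 ± 0.172 in wild-type. It was lower in Nlrp3-/- with LPS+ATP, at 16.7 ± 0.939 against 18.8 ± 0.319. Itgam, which had more than 1 entry, is given in the sums only. In control, Cd68 was 1450 ± 27.0 FPKM in wild-type and 877 ± 10.7 in Nlrp3-/-, Csf1r was 253 ± 5.16 and 164 ± 3.33, and Adgre1 was 237 ± 3.28 and 184 ± 2.33. With LPS+ATP, Cd68 was 814 ± 17.1 and 620.4 ± 14.9, Adgre1 was 460.3 ± 8.57 and 327 ± 3.34, and Csf1r overlapped at 178 ± 3.65 and 176 ± 3.48. Markers of other cells moved with genotype as well. The summed FPKM of 6 fibroblast or stromal markers was 157 to 161.7 in wild-type control, 180.6 to 183.3 in wild-type LPS+ATP, 1165 to 1182 in Nlrp3-/- control and 891.4 to 907.1 in Nlrp3-/- LPS+ATP. That of 6 markers of neutrophils and their precursors was 228.7 to 261.1 and 90.99 to 106.7 in wild-type control and LPS+ATP, and 1366 to 1414 and 414.8 to 442.1 in Nlrp3-/- control and LPS+ATP. S100a8 and S100a9 made up most of these sums, at 379 ± 10.7 and 862 ± 11.7 FPKM in Nlrp3-/- control, while Ly6g was at most 0.781 FPKM in any library. The summed FPKM of 3 markers each was at most 1.906 for B cells, 0.7868 for dendritic cells and 11.07 for endothelial cells. In control these sums were higher in Nlrp3-/- without overlap, for B cells at 1.513 to 1.906 against 0.2208 to 0.6635. Of the endothelial markers, Kdr overlapped between genotypes in control. The sum of 3 T cell markers was at most 21.92 and was nearly all Cd4, at 9.25 ± 0.282 in wild-type control and 21.5 ± 0.338 in Nlrp3-/- control. Cd3e and Cd3d were at most 0.0609 and 0.0789 FPKM in any library. The part of these marker differences in the results below was not tested, and in bulk RNA fewer cells of a type and less RNA per cell cannot be told apart.

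With LPS+ATP, the 10 genes moved in different directions (see the plot of FPKM in each library). In wild-type BMDMs, 7 were up-regulated, 2 were down-regulated and Tirap did not pass the test. Among all 12622 genes, 23.3% were higher and 53.1% lower in that comparison. The 3 DEGs among the members were Cd14, Irak3 and Irak2, all higher, against a background of 8.25% DEGs higher and 11.2% lower. In Nlrp3-/- BMDMs, 5 members were up-regulated, 2 were down-regulated and 3 did not pass, with a background of 20.6% higher and 53.8% lower. The 2 DEGs there were Cd14 and Irak3, both higher, with a background of 6.64% higher and 8.21% lower. The median log2 difference of the members was 0.28 in wild-type and 0.20 in Nlrp3-/-, and that of all genes was -0.25 and -0.24. Rescaling the libraries by the median ratio of all genes moved those medians of all genes by 0.24 and 0.23, so differences under this scaling are given where they change a call. Under it, 8 members were higher and 2 lower with LPS+ATP in wild-type, and 8 were higher and 1 lower in Nlrp3-/-. The background under that scaling was 34.9% higher and 36.3% lower in wild-type, and 32.9% higher and 32.6% lower in Nlrp3-/-.

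**Figure D1:**
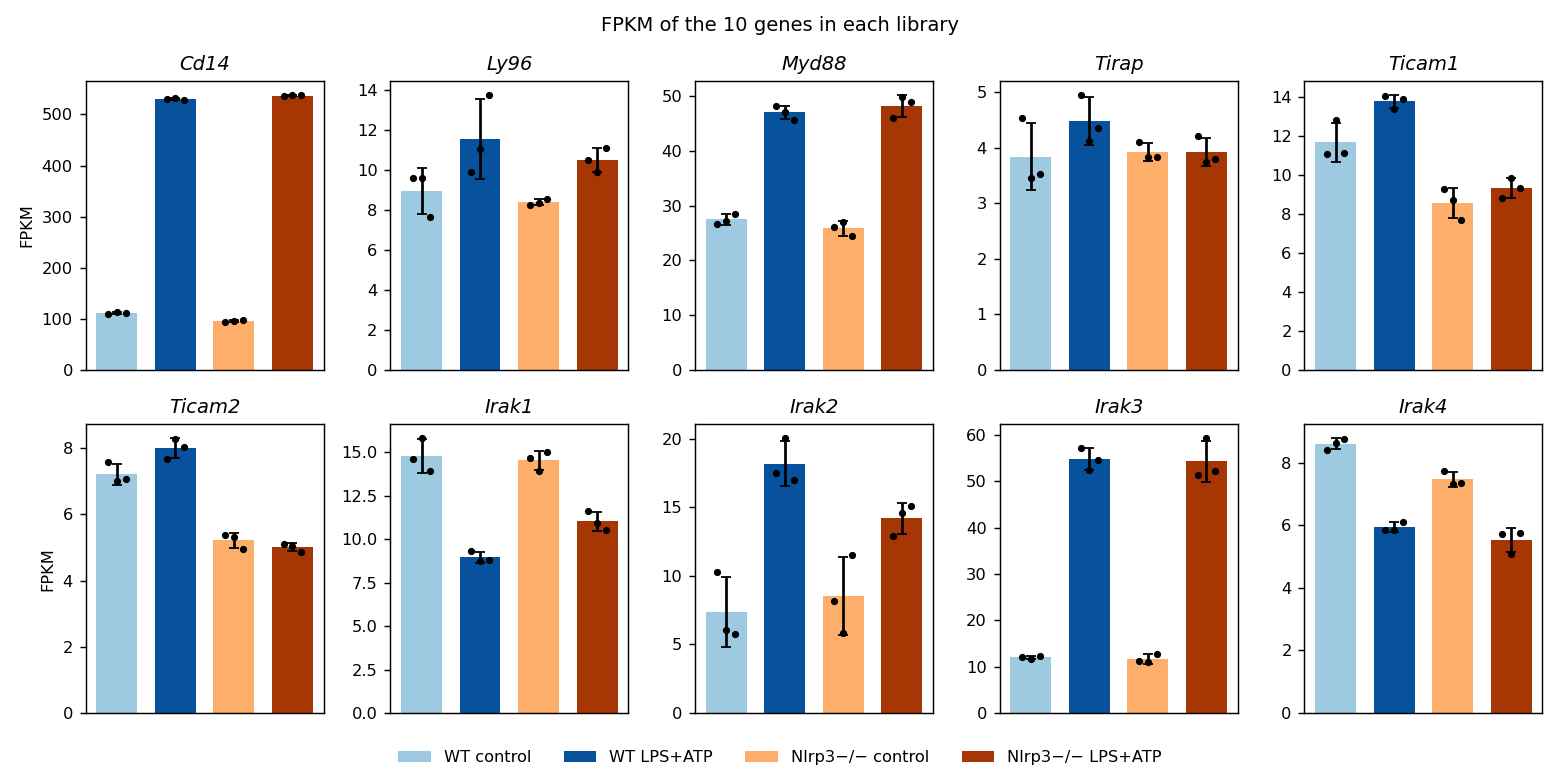
FPKM of each of the 10 genes in the 4 groups. Bars are means of 3 libraries, error bars are SDs and points are single libraries, with the vertical axis starting at 0 in each panel. Cd14 and Irak3 stand far higher with LPS+ATP in both genotypes, Myd88 and Irak2 also stand higher, Irak1 and Irak4 stand lower, and Ticam1 and Ticam2 stand lower in Nlrp3-/- than in wild-type.

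Of the co-receptors, Cd14 had the highest level of the 10 genes in every group. Its FPKM was 109, 113 and 110.4 in wild-type control, 530.1, 532 and 528 in wild-type LPS+ATP, 94.5, 95.9 and 96.9 in Nlrp3-/- control, and 535, 538 and 538 in Nlrp3-/- LPS+ATP. The libraries of each group lay close together and the stimulated groups were far from the controls. Mean FPKM rose 4.79-fold in wild-type (log2 difference 2.25, SE 0.022, limma adjusted p = 9.63e-15) and 5.61-fold in Nlrp3-/- (2.48, SE 0.022, limma adjusted p = 4.91e-15). Cd14 thereby stood above 99.5% of the tested genes in both stimulated groups, and above 97.4% and 97.0% in wild-type and Nlrp3-/- control.

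The genotypes differed in Cd14 before stimulation and came together after it. Nlrp3-/- control lay below wild-type control without overlap, at 95.8 ± 1.22 against 111 ± 2.24 FPKM (log2 difference -0.21, limma adjusted p = 1.36e-05). With LPS+ATP the means were 537 ± 1.55 and 530.0 ± 2.34 FPKM, and the log2 difference was 0.02 (interval -0.03 to 0.07, limma adjusted p = 0.517), although the 3 Nlrp3-/- libraries all lay above the 3 wild-type libraries. The response itself was larger in Nlrp3-/- by 0.23 (interval 0.16 to 0.29, limma adjusted p = 0.000326 for the interaction), and it was 0.21 under median-ratio scaling. The genotype difference with LPS+ATP depended on the scaling: under the median ratio it was -0.20 (limma adjusted p = 5.27e-05), with Nlrp3-/- lower.

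Ly96, whose product MD-2 holds the lipid part of LPS beside TLR4, moved far less than Cd14. It stood above 61.4% of the tested genes in Nlrp3-/- control, the group where it ranked lowest. It was 9.61, 9.59 and 7.64 FPKM in wild-type control and 9.88, 11.1 and 13.8 FPKM in wild-type LPS+ATP. In Nlrp3-/- it was 8.27, 8.35 and 8.55 FPKM in control and 10.5, 9.89 and 11.1 FPKM with LPS+ATP. The stimulated libraries were higher without overlap in both genotypes, by a narrow margin in wild-type. Ly96 rose by 0.33 in wild-type (SE 0.11, limma adjusted p = 0.0151) and by 0.29 in Nlrp3-/- (SE 0.11, limma adjusted p = 0.0292). Single libraries decided both calls. In wild-type the test was passed in 4 of 6 fits that left out 1 library, and failed without the third control library or the third LPS+ATP library, with an adjusted p of up to 0.0661. In Nlrp3-/- it was passed in 1 of 6 fits, that without the second LPS+ATP library, and the adjusted p reached 0.0894 in the others. No genotype difference passed, with intervals of -0.31 to 0.16 in control and -0.36 to 0.12 with LPS+ATP. Under median-ratio scaling the differences with stimulation were larger, at 0.62 and 0.56 (limma adjusted p = 0.000274 and 0.000756), and Ly96 was lower in Nlrp3-/- with LPS+ATP, by -0.32 (limma adjusted p = 0.0267). The ratio of Cd14 to Ly96 FPKM was 12.5 ± 1.69 in wild-type control and 46.7 ± 7.77 with LPS+ATP, and 11.4 ± 0.080 and 51.3 ± 2.97 in Nlrp3-/-, so the transcripts of the 2 co-receptors were far less even after stimulation.

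Among the TIR adaptors, Myd88 moved most. Its FPKM was 26.7, 27.3 and 28.6 in wild-type control, 48.2, 47.2 and 45.8 in wild-type LPS+ATP, 26.2, 27.1 and 24.4 in Nlrp3-/- control, and 46.0, 49.8 and 49.0 in Nlrp3-/- LPS+ATP. Both stimulated groups lay well above both control groups, and the genotypes overlapped in each state. Mean FPKM rose 1.71-fold in wild-type (log2 difference 0.75, SE 0.046, limma adjusted p = 4.06e-08) and 1.86-fold in Nlrp3-/- (0.87, SE 0.046, limma adjusted p = 1.48e-08), under the fold limit for a DEG. Median-ratio scaling took these differences past that limit, to 1.06 and 1.16 (limma adjusted p = 3.02e-09 and 1.84e-09). The log2 difference between genotypes was -0.09 in control (interval -0.19 to 0.02) and 0.03 with LPS+ATP (interval -0.07 to 0.14), and under median-ratio scaling it was -0.28 in control (limma adjusted p = 0.000615) and -0.18 with LPS+ATP (limma adjusted p = 0.00964). The interaction was 0.12 (interval -0.02 to 0.27, limma adjusted p = 0.207).

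Tirap, the membrane-bound bridge between TLR4 and MyD88, had the lowest level of the 10 genes in every group. It was 4.53, 3.45 and 3.52 FPKM in wild-type control, 4.95, 4.11 and 4.36 in wild-type LPS+ATP, 4.10, 3.83 and 3.83 in Nlrp3-/- control, and 4.22, 3.75 and 3.80 in Nlrp3-/- LPS+ATP. The groups overlapped in all 4 comparisons and none passed the test. The log2 difference with LPS+ATP was 0.18 in wild-type (interval -0.01 to 0.38, limma adjusted p = 0.0753) and -0.00048 in Nlrp3-/- (interval -0.19 to 0.19), and under median-ratio scaling it was 0.44 (limma adjusted p = 0.000635) and 0.23 (limma adjusted p = 0.0312). The genotype difference with LPS+ATP was -0.15 (interval -0.34 to 0.04, limma adjusted p = 0.177), and under median-ratio scaling Tirap was lower in Nlrp3-/-, by -0.33 (limma adjusted p = 0.00665).

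The 2 adaptors of the TRIF arm were the members that differed most steadily between genotypes. Ticam1 was 11.1, 12.8 and 11.1 FPKM in wild-type control and 14.1, 13.4 and 13.9 FPKM in wild-type LPS+ATP. It was 9.26, 8.74 and 7.71 FPKM in Nlrp3-/- control and 8.81, 9.83 and 9.35 FPKM in Nlrp3-/- LPS+ATP. Each Nlrp3-/- library was below each wild-type library, whatever the stimulation. Mean FPKM was 1.36-fold lower in Nlrp3-/- control (log2 difference -0.41, SE 0.071, limma adjusted p = 0.000635) and 1.48-fold lower with LPS+ATP (-0.52, SE 0.071, limma adjusted p = 0.000104). Stimulation raised Ticam1 in wild-type by 0.22 (limma adjusted p = 0.0134), a call that was lost without the first or the third control library (adjusted p of up to 0.0506). In Nlrp3-/- the log2 difference was 0.11 (interval -0.04 to 0.27, limma adjusted p = 0.173), and the interaction was -0.11 (interval -0.33 to 0.11, limma adjusted p = 0.455). Median-ratio scaling made the rise larger in wild-type, at 0.52 (limma adjusted p = 4.80e-05), and brought Nlrp3-/- past the test, at 0.38 (limma adjusted p = 0.000691).

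Ticam2 was 7.58, 7.01 and 7.05 FPKM in wild-type control and 7.67, 8.29 and 8.03 FPKM in wild-type LPS+ATP. It was 5.39, 5.31 and 4.95 FPKM in Nlrp3-/- control and 5.11, 5.05 and 4.86 FPKM in Nlrp3-/- LPS+ATP. As for Ticam1, wild-type and Nlrp3-/- libraries did not overlap in either state. Mean FPKM was 1.38-fold lower in Nlrp3-/- control (log2 difference -0.40, SE 0.047, limma adjusted p = 2.93e-05) and 1.60-fold lower with LPS+ATP (-0.58, SE 0.047, limma adjusted p = 1.56e-06). Stimulation raised it by 0.13 in wild-type (limma adjusted p = 0.0254), which held in 2 of 6 fits without 1 library, those without the first control or the first LPS+ATP library, with an adjusted p of up to 0.0890 in the others. In Nlrp3-/- the log2 difference was -0.05 (interval -0.15 to 0.06, limma adjusted p = 0.362), which under median-ratio scaling was 0.20 (limma adjusted p = 0.00355), and the interaction was -0.18 (interval -0.33 to -0.03, unadjusted p = 0.0212, limma adjusted p = 0.0688). Under the same scaling the wild-type difference was 0.41 (limma adjusted p = 1.13e-05), and the interaction passed, at -0.22 (limma adjusted p = 0.0351). Under median-ratio scaling both genes were also lower in Nlrp3-/-, at -0.58 and -0.72 for Ticam1 and -0.56 and -0.78 for Ticam2 in control and with LPS+ATP. Exons of Ticam2 and Tmed7 share 838 bases on the same strand, so reads there could have been counted for either gene. Tmed7, whose product is a trafficking protein known to act with TRAM, was 18.7 ± 2.36 and 20.6 ± 0.184 FPKM in wild-type control and LPS+ATP and 20.3 ± 0.525 and 19.3 ± 0.255 FPKM in Nlrp3-/-, and its genotype differences did not pass (limma adjusted p = 0.167 and 0.290). The ratio of Ticam2 to Ticam1 FPKM ranged over means of 0.538 to 0.622 in the 4 groups.

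Shares within a family do not depend on the scaling between libraries. Of the summed FPKM of the 4 adaptors, Myd88 took 54.8% ± 1.82 in wild-type control and 64.2% ± 0.588 with LPS+ATP, and 59.4% ± 1.02 and 72.5% ± 0.733 in Nlrp3-/-. Ticam1 took 23.2% ± 1.87 and 18.8% ± 0.461 in wild-type and 19.6% ± 0.897 and 14.0% ± 0.311 in Nlrp3-/-. The mix thus leaned further to Myd88 both with stimulation and in Nlrp3-/-, with no overlap between the libraries of the groups compared. Between genotypes the FPKM of Myd88 itself overlapped, while the summed FPKM of the 4 adaptors was lower in Nlrp3-/-. That sum was 50.2 ± 0.363 and 73.3 ± 1.46 in wild-type control and LPS+ATP, and 43.6 ± 2.34 and 66.5 ± 2.22 in Nlrp3-/-. The FPKM of Myd88 over that of Ticam1 was 2.37 ± 0.227 and 3.42 ± 0.114 in wild-type control and LPS+ATP, and 3.03 ± 0.180 and 5.18 ± 0.0907 in Nlrp3-/-. Exact two-sided permutation tests of 3 libraries against 3 cannot give a p below 0.1. For the Myd88 share, p was 0.1 in all 4 comparisons, or 0.145 when adjusted over the 32 shares tested in both families, so no share passed the threshold.

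The IRAK family changed in opposite directions with LPS+ATP. Irak3 was 12.2, 11.7 and 12.3 FPKM in wild-type control and 57.3, 52.5 and 54.6 FPKM in wild-type LPS+ATP. It was 11.2, 10.99 and 12.8 FPKM in Nlrp3-/- control and 51.4, 59.4 and 52.2 FPKM in Nlrp3-/- LPS+ATP. The stimulated libraries lay more than 4-fold above the controls and the genotypes overlapped in both states. Mean FPKM rose 4.55-fold in wild-type (log2 difference 2.09, SE 0.066, limma adjusted p = 1.03e-10) and 4.66-fold in Nlrp3-/- (2.13, SE 0.066, limma adjusted p = 1.23e-10). The response differed between genotypes by 0.03 (interval -0.17 to 0.24, limma adjusted p = 0.830). The genotype differences were -0.05 in control (interval -0.19 to 0.10) and -0.01 with LPS+ATP (interval -0.16 to 0.13), and under median-ratio scaling both were -0.23 (limma adjusted p = 0.0121 and 0.0120).

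Irak2, whose product sustains signalling late in the TLR response, had a wider spread in the controls. It was 10.3, 6.02 and 5.73 FPKM in wild-type control and 17.5, 20.05 and 17.0 FPKM in wild-type LPS+ATP. It was 8.18, 5.84 and 11.5 FPKM in Nlrp3-/- control and 12.9, 14.6 and 15.1 FPKM in Nlrp3-/- LPS+ATP. One wild-type control library stood above the other two, yet every stimulated library was above every control. Mean FPKM rose 2.47-fold in wild-type (log2 difference 1.236, SE 0.22, limma adjusted p = 0.000361) and 1.67-fold in Nlrp3-/- (0.72, SE 0.22, limma adjusted p = 0.0127), the latter with an adjusted p of 0.0541 without the second Nlrp3-/- control library. With LPS+ATP the 3 Nlrp3-/- libraries lay below the 3 wild-type libraries, but the log2 difference of -0.33 did not pass (interval -0.83 to 0.16, limma adjusted p = 0.245), nor did the interaction of -0.52 (interval -1.21 to 0.18, limma adjusted p = 0.260). A near copy of Irak2, Gm7229, covers 31.4% of its longest transcript at 95% identity or more, so its values could hold shared reads.

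Irak1, the kinase that MyD88-bound IRAK4 phosphorylates, fell. It was 14.6, 15.8 and 13.9 FPKM in wild-type control and 9.32, 8.76 and 8.82 FPKM in wild-type LPS+ATP. It was 14.7, 13.9 and 15.03 FPKM in Nlrp3-/- control and 11.6, 10.96 and 10.5 FPKM in Nlrp3-/- LPS+ATP. The controls overlapped, and the stimulated Nlrp3-/- libraries stood between the controls and the stimulated wild-type libraries. Mean FPKM was 1.65-fold lower with LPS+ATP in wild-type (log2 difference -0.66, SE 0.053, limma adjusted p = 4.49e-07) and 1.32-fold lower in Nlrp3-/- (-0.37, SE 0.053, limma adjusted p = 7.60e-05). The fall was smaller in Nlrp3-/- by 0.30 (interval 0.13 to 0.46, limma adjusted p = 0.0138 for the interaction), and under median-ratio scaling that difference was 0.28 (limma adjusted p = 0.0170).

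Between genotypes, Irak1 was higher in Nlrp3-/- with LPS+ATP by 0.27 (SE 0.053, limma adjusted p = 0.00139) and differed by -0.02 in control (interval -0.14 to 0.10). The call with LPS+ATP and the fall within Nlrp3-/- were both lost under median-ratio scaling, at 0.07 (limma adjusted p = 0.268) and -0.09 (limma adjusted p = 0.157), while the control difference became -0.21 (limma adjusted p = 0.00727). Irak1 lies on chromosome X, and the genotypes differed in sex. Its part was not tested.

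Irak4, the first kinase of the Myddosome, was 8.41, 8.64 and 8.77 FPKM in wild-type control and 5.86, 5.84 and 6.11 FPKM in wild-type LPS+ATP. It was 7.73, 7.31 and 7.36 FPKM in Nlrp3-/- control and 5.73, 5.08 and 5.76 FPKM in Nlrp3-/- LPS+ATP. The 4 groups did not overlap, in the descending order wild-type control, Nlrp3-/- control, wild-type LPS+ATP and Nlrp3-/- LPS+ATP. Mean FPKM was 1.45-fold lower with LPS+ATP in wild-type (log2 difference -0.47, SE 0.048, limma adjusted p = 3.93e-06) and 1.35-fold lower in Nlrp3-/- (-0.38, SE 0.048, limma adjusted p = 2.87e-05). Nlrp3-/- control was lower than wild-type control by -0.18 (limma adjusted p = 0.00926), and with LPS+ATP the difference was -0.09 (interval -0.20 to 0.02, limma adjusted p = 0.149), or -0.28 (limma adjusted p = 0.000438) under median-ratio scaling. The falls of Irak4 were shallower under that scaling, at -0.19 in wild-type and -0.12 in Nlrp3-/-, and still passed (limma adjusted p = 0.00330 and 0.0457).

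**Figure D2:**
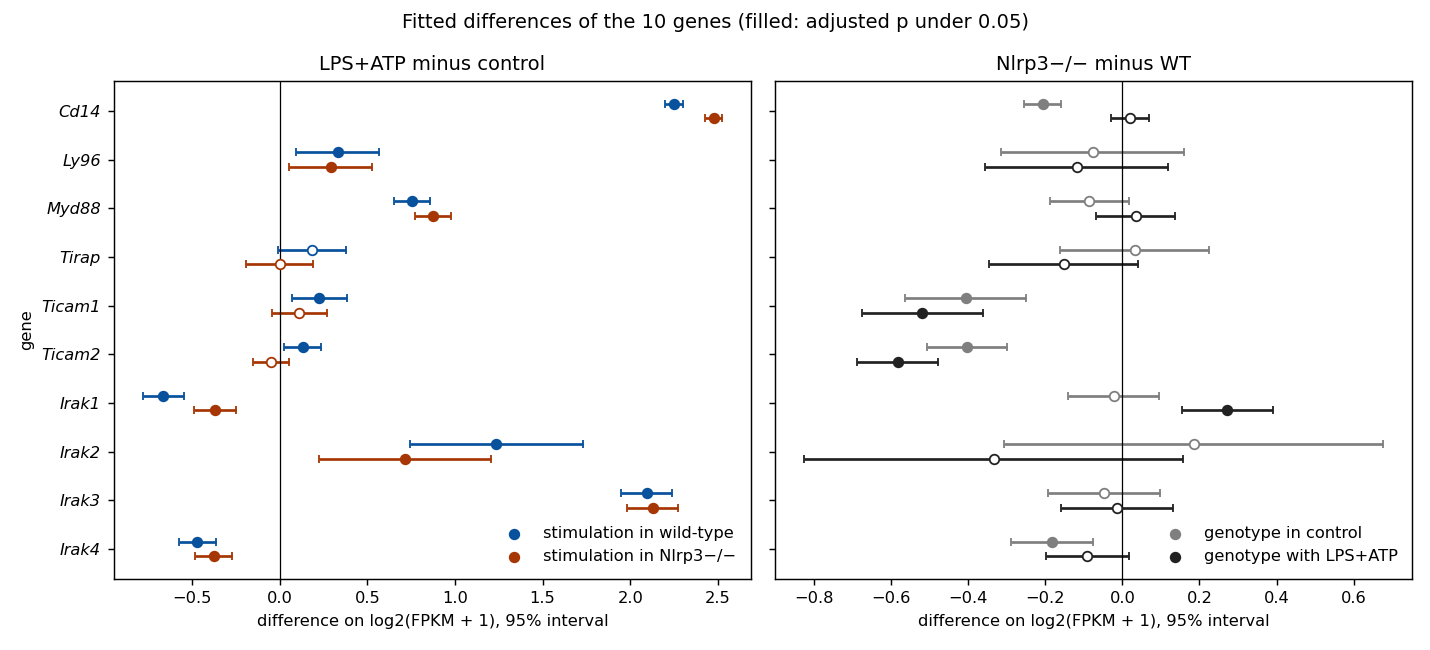
Fitted log2(FPKM + 1) differences of the 10 genes with 95% intervals, LPS+ATP minus control on the left and Nlrp3-/- minus wild-type on the right. Filled points have an adjusted p under 0.05. Cd14 and Irak3 lie beyond 2 on the left in both genotypes. Ticam1 and Ticam2 lie below 0 in both states on the right. Median-ratio scaling, which is not drawn, leaves both below 0 and takes Irak1 with LPS+ATP from 0.27 to 0.07.

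The make-up of the IRAK transcripts turned over with stimulation. Irak3 took 28.2% ± 1.73 of the summed FPKM of the 4 genes in wild-type control and 62.4% ± 1.85 with LPS+ATP, and 27.7% ± 1.06 and 63.8% ± 1.93 in Nlrp3-/-. Irak1 went from 34.6% ± 2.69 to 10.2% ± 0.151 in wild-type and from 34.6% ± 2.26 to 13.0% ± 1.08 in Nlrp3-/-. Irak4 went from 20.2% ± 1.57 to 6.76% ± 0.277 and from 17.8% ± 1.82 to 6.51% ± 0.755. For these 3 genes the stimulated and control libraries did not overlap in either genotype. The Irak2 share overlapped between states, at 17.0% ± 4.89 and 20.7% ± 2.01 in wild-type and 19.9% ± 4.68 and 16.7% ± 1.21 in Nlrp3-/-. The summed FPKM of the family was 42.8 ± 2.49 and 87.9 ± 1.83 in wild-type control and LPS+ATP, and 42.2 ± 4.33 and 85.1 ± 4.33 in Nlrp3-/-. Exact two-sided permutation p was 0.1 for each of the non-overlapping shares, the smallest it can be with 3 against 3 libraries, and 0.145 adjusted over the 32 shares.

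**Figure D3:**
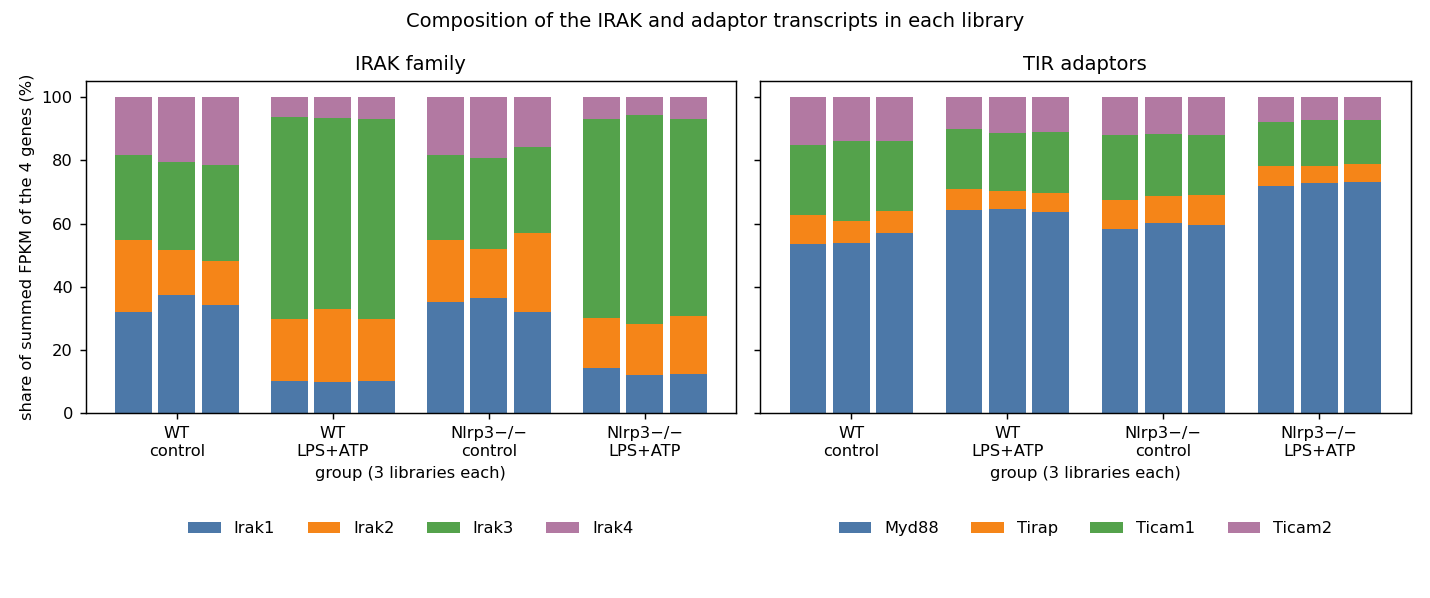
Share of each gene in the summed FPKM of its family, in percent, for the 4 IRAK genes (left) and the 4 TIR adaptors (right). Each bar is 1 library. Irak3 fills 60.2% to 66.0% of the stimulated bars of both genotypes and 26.7% to 30.1% of the control bars, and the Myd88 part is largest in Nlrp3-/- LPS+ATP.

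In ratios, Irak3 stood below Irak1 in the controls, at 0.818 ± 0.0706 in wild-type and 0.801 ± 0.0458 in Nlrp3-/-. With LPS+ATP it stood above it, at 6.11 ± 0.106 in wild-type and 4.93 ± 0.499 in Nlrp3-/-. Irak3 over Irak4 went from 1.40 ± 0.0452 to 9.23 ± 0.471 in wild-type and from 1.56 ± 0.155 to 9.91 ± 1.54 in Nlrp3-/-. The Irak3 transcript exceeded that of each other IRAK in every stimulated library. The order of the 10 levels shifted accordingly. Irak3 was the fourth in both control groups, below Cd14, Myd88 and Irak1, and the second in both stimulated groups, above Myd88 without overlap. In wild-type control, Irak3 and Ticam1 overlapped, as did neighbours from Ly96 through Irak4 and Irak2 to Ticam2. In Nlrp3-/- LPS+ATP, Irak1 overlapped with Ly96 and Irak4 with Ticam2.

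Between genotypes, 4 of 10 members were lower in Nlrp3-/- control and none was higher, where 14.5% of all tested genes were lower and 33.3% higher. With LPS+ATP, 2 were lower and Irak1 was higher, where 12.6% were lower and 35.9% higher. The interaction passed for 2 members, Cd14 and Irak1, both higher, with a background of 14.7% higher and 13.0% lower. None of these differences reached the fold limit, so by limma 0 of the members were DEGs in these 3 comparisons. The background of DEGs was 6.02% higher and 0.689% lower in control, 4.48% and 0.570% with LPS+ATP, and 0.721% and 1.43% for the interaction. The median log2 difference of the members was -0.08 in control and -0.10 with LPS+ATP, and that of all genes was 0.09 and 0.11. Median-ratio scaling moved the medians of all genes by -0.15 and -0.17, and under it 7 members were lower in control and 8 with LPS+ATP, with 0 higher in either state. The background under that scaling was 18.5% higher and 30.1% lower in control, and 21.5% higher and 29.7% lower with LPS+ATP. For the interaction it was 14.3% higher and 13.6% lower, and the members called were Cd14 and Irak1, both higher, and Ticam2, lower. The genotype comparisons share libraries with the stimulation comparisons, so their values are not independent. The summed fibroblast and neutrophil markers given above were higher in Nlrp3-/- in both states. Cd68 and Adgre1 were lower in both states and Csf1r in control only, while Mertk was higher in control and lower with LPS+ATP.

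Promoter sequences are shown for the 3 members that rose in both genotypes, had a mean rise of at least 1.5-fold and have an entry among the RefSeq promoters on GRCm38.p6, namely Myd88, Irak2 and Irak3. Cd14, which rose more, has no entry among these promoters. Each sequence is the 250 bases before the RefSeq transcription start, written 5′ to 3′ on the strand of the gene. They lie at chr9:119340019-119340268 on the minus strand, chr6:113638217-113638466 on the plus strand and chr10:120201598-120201847 on the minus strand. The windows of Myd88 and Irak3 lie inside the annotated span of their genes. The RefSeq start used was 23 bases from the principal transcript start for Myd88 and 62 for Irak3. Capitals mark a match to one of 3 motifs.
Myd88: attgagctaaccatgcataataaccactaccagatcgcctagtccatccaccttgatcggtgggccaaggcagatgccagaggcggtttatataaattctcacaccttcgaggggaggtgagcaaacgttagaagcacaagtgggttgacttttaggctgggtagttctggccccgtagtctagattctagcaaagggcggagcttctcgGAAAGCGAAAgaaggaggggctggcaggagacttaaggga
Irak2: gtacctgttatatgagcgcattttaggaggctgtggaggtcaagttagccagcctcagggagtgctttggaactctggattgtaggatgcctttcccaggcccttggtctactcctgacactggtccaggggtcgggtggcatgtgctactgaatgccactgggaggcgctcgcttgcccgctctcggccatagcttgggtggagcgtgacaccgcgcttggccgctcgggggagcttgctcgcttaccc
Irak3: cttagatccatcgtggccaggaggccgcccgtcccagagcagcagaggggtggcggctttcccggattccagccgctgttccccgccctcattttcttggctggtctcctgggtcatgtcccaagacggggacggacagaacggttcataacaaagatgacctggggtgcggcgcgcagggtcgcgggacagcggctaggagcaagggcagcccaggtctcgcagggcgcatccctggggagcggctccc
The windows were searched on both strands for the NF-kB consensus, for the core of the interferon-stimulated response element (ISRE), which is GAAA, any 2 bases and GAAA, and for the AP-1 site TGANTCA. The Myd88 window held 1 match, to the ISRE core, beginning 40 bases before the start. Of 32851 promoter windows of the same length, 2.98% held an ISRE core, 3.90% an NF-kB consensus and 6.75% an AP-1 site. The windows of Irak2, Irak3 and the other 4 members with an entry held none of the 3, which says only that these letters are not in these 250 bases.

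By GENCODE M21 on GRCm38, all 10 members are protein-coding. Myd88 covers chromosome 9 from 119335934 to 119341411, Tirap chromosome 9 from 35184551 to 35200291, Ly96 chromosome 1 from 16688051 to 16709611 and Ticam1 chromosome 17 from 56269319 to 56276786. The IRAK genes are on 4 chromosomes, with Irak1 on X from 74013914 to 74023918, Irak2 on 6 from 113638467 to 113695026, Irak3 on 10 from 120141648 to 120202130 and Irak4 on 15 from 94543643 to 94581815. No member lies on chromosome 11, where Nlrp3 is. Exons of Myd88, Tirap, Irak2, Irak3 and Irak4 overlap exons of genes on the opposite strand, by 290 bases for Myd88 with Acaa1a, 446 for Tirap with Gm39318, 196 for Irak2 with Gm43963, 192 for Irak3 with Tmbim4 and 395 for Irak4 with Twf1. Whether strand was used in counting is not given in the sources used here.

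The wider pathway was described with 41 other genes, of which 39 passed the filter. The 2 that did not were the inhibitors Sigirr and Sarm1, at means of up to 0.688 and 0.0826 FPKM. In wild-type, LPS+ATP raised 16 and lowered 11 of the 39, and in Nlrp3-/- it raised 16 and lowered 13, with medians of 0.11 and -0.07. Median-ratio scaling turned these counts to 25 higher and 6 lower in wild-type and 23 higher and 5 lower in Nlrp3-/-. Of all genes under that scaling, 34.9% were higher and 36.3% lower in wild-type, and 32.9% higher and 32.6% lower in Nlrp3-/-. All 7 genes of the TRIF arm below the adaptors changed in both genotypes, with 5 higher and 2 lower, or 5 higher and 1 lower under median-ratio scaling. Among all genes, 23.3% rose and 53.1% fell in wild-type, and 20.6% rose and 53.8% fell in Nlrp3-/-; most genes thus changed in both genotypes. In the MyD88 arm below the IRAKs, 5 of 17 rose and 5 fell in wild-type, and 6 rose and 5 fell in Nlrp3-/-. These counts depended on the scaling: under the median ratio 10 rose and 2 fell in wild-type, and 9 rose and 2 fell in Nlrp3-/-. Among 9 inhibitors, 4 rose and 2 fell in wild-type, and 4 rose and 3 fell in Nlrp3-/-. Under median-ratio scaling 7 rose and 1 fell in each genotype. Of the 6 genes of the receptor and LPS handling, 2 rose and 2 fell in wild-type, and 1 rose and 3 fell in Nlrp3-/-. With the median ratio, 3 rose and 2 fell in wild-type, and 2 rose and 1 fell in Nlrp3-/-. Between genotypes, 6 of the 39 were higher and 11 lower in Nlrp3-/- control, and 8 were higher and 11 lower with LPS+ATP. The higher counts include Il1rl1, which passed the filter only through its Nlrp3-/- libraries. Of all genes, 33.3% were higher and 14.5% lower in control, and 35.9% and 12.6% with LPS+ATP. Under median-ratio scaling the counts became 1 and 20, and 2 and 19. The shares of all genes became 18.5% higher and 30.1% lower in control, and 21.5% and 29.7% with LPS+ATP.

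Tlr4 itself varied widely between libraries of a group. It was 16.7, 3.61 and 3.06 FPKM in wild-type control, 3.66, 2.43 and 11.9 in wild-type LPS+ATP, 3.95, 3.92 and 13.0 in Nlrp3-/- control, and 1.67, 2.46 and 3.01 in Nlrp3-/- LPS+ATP. One library stood far above the other two in 3 of the 4 groups. In Nlrp3-/- every stimulated library nevertheless lay below every control library. No comparison passed, with log2 differences of -0.23 in wild-type (SE 0.63, limma adjusted p = 0.754) and -1.07 in Nlrp3-/- (SE 0.63, limma adjusted p = 0.149) with LPS+ATP, the first of which was 0.03 under median-ratio scaling.

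Of the MyD88 arm, the DEGs were E3 ubiquitin ligases and a scaffold of the kinase complex below the IRAKs. Peli1, a Pellino ligase that binds IRAKs, was 3.94 ± 0.412 and 17.0 ± 1.06 FPKM in wild-type control and LPS+ATP and 4.54 ± 0.284 and 13.2 ± 0.0429 in Nlrp3-/-. Its relative Peli2 went the other way, from 4.31 ± 0.0998 to 1.01 ± 0.0103 in wild-type and from 3.45 ± 0.0982 to 1.02 ± 0.147 in Nlrp3-/-. The log2 differences were 1.87 and 1.36 for Peli1 and -1.40 and -1.14 for Peli2. The third Pellino gene, Peli3, also rose, by 0.43 in wild-type (limma adjusted p = 0.000126) and 0.73 in Nlrp3-/- (limma adjusted p = 1.81e-06), which is under the fold limit. It was added here after its values were seen. Rnf31, the catalytic subunit of the linear ubiquitin ligase, rose by 1.23 and 1.14, and Ikbkg, the scaffold of the IκB kinase complex, rose by 1.07 and 0.62, both in wild-type and Nlrp3-/- in that order. Exons of Rnf31 share 123 bases with Irf9 and those of Peli2 share 869 bases with Gm6498 on the same strand.

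Of the TRIF arm, Irf7, the interferon regulatory factor that amplifies type I interferon, rose most. It was 10.3 ± 0.445 and 222 ± 4.57 FPKM in wild-type control and LPS+ATP and 5.08 ± 0.136 and 181 ± 4.52 FPKM in Nlrp3-/-. The log2 difference with LPS+ATP was 4.30 in wild-type and 4.90 in Nlrp3-/-, and Nlrp3-/- was lower in control by -0.90 (limma adjusted p = 4.42e-09) and with LPS+ATP by -0.30 (limma adjusted p = 4.30e-05). Tank, a scaffold of the TBK1 kinases, rose by 1.70 in wild-type and 1.40 in Nlrp3-/-, and Ikbke, one of those kinases, by 0.92 and 1.15.

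Among the inhibitors, Tnfaip3, which removes and edits ubiquitin chains, rose by 2.94 in wild-type and 2.83 in Nlrp3-/-, with spreads of 53.3 ± 16.1 and 48.1 ± 17.7 FPKM in the stimulated groups. Its partner Tnip1 rose by 1.84 and 1.99, and Pik3ap1, an adaptor that couples TLRs to phosphoinositide 3-kinase, by 0.77 and 1.08. Otulin, which removes linear ubiquitin chains, was down-regulated by -1.10 in wild-type and -0.49 in Nlrp3-/-. Il1rl1, the receptor for IL-33, was the single pathway DEG between genotypes: it was 0.5996 ± 0.141 FPKM in wild-type LPS+ATP and 3.82 ± 0.392 FPKM in Nlrp3-/- LPS+ATP (log2 difference 1.59). All 6 wild-type libraries were under 1 FPKM and all 6 Nlrp3-/- libraries above it, so Il1rl1 passed the filter only through the genotype in which it was high, and its differences are a description. In control it was 0.417 ± 0.139 and 1.46 ± 0.198 FPKM in wild-type and Nlrp3-/-.

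**Figure D4:**
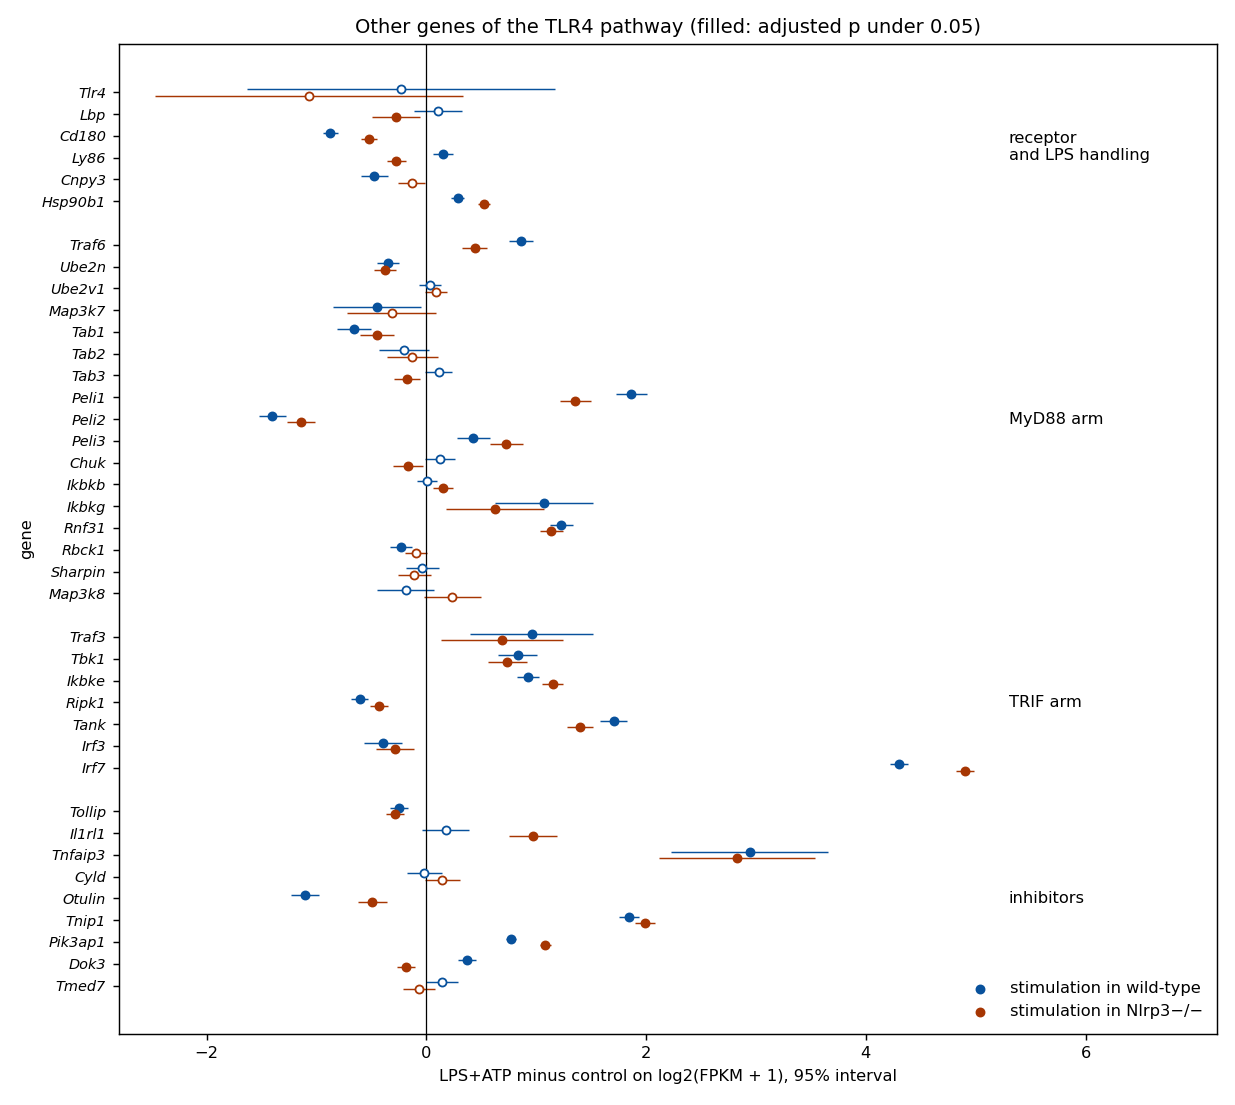
LPS+ATP minus control on log2(FPKM + 1) for the 39 other pathway genes tested, in wild-type and Nlrp3-/-, with 95% intervals. Filled points have an adjusted p under 0.05. Irf7 and Tnfaip3 lie farthest to the right, Peli2 farthest to the left among filled points, and the interval of Tlr4 is the widest.

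The genes whose log2(FPKM + 1) most resembled that of the 3 DEG members over the 12 libraries were found by Pearson's r, as a description in which all points share the 4 groups. For Cd14 they were Ifih1 (r = 0.9997), Mapkapk2 (r = 0.9997) and Zbp1 (r = 0.9996), and 816 genes had an r above 0.95. For Irak3 they were Gbp9 (r = 0.9985), Cst7 (r = 0.9982) and Gm18853 (r = 0.9982), and 860 genes had an r above 0.95. For Irak2, with its spread in the controls, they included Crtc2 (r = 0.9473) and Cenpj (r = 0.9441), and 0 genes exceeded 0.95.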

How the data were processed

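BMDM RNA was sequenced in 12 libraries. The values are FPKM as the authors deposited them, in a single table whose columns carry genotype, treatment and replicate number. The aligner, the annotation and the normalization between libraries are not given in the sources used here. The submitters' processing notes name GRCm39 and DESeq2 1.24.0, with no role stated. FPKM holds no read counts, so depth in reads is unknown, no interval of counting error was given, and no count test was run. There were 0 columns of per-library values left unused.

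Of 55335 genes, the 12622 that reached an FPKM of 1 in 3 or more of the 12 libraries entered limma 3.58.1 under R 4.3.3 as log2(FPKM + 1). A single model held the 4 group means, with a variance trend and no replicate block, after the fit had been tested on simulated data. Calls used a Benjamini-Hochberg adjusted p under 0.05, and DEGs also a log2 difference of at least 1. Shares were compared by exact permutation tests with scipy 1.17.1 in Python 3.11.15 (numpy 2.4.6, pandas 2.3.3), and plots used matplotlib 3.10.9. Positions and overlaps came from GENCODE M21 on GRCm38, which holds 55154 of the 55335 gene identifiers, with no conversion from the build of the notes. A near copy was a transcript of another gene that blastn 2.17.0 aligned at 95% identity to 20% or more of the longest transcript. Promoter windows came from RefSeq (GRCm38.p6), where 7 of the 10 members matched an entry by symbol, and the entry nearest the principal transcript start was used.

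The text names all 10 members, Nlrp3, Tlr4, pathway genes that were DEGs in a stimulation or genotype comparison, those past the interaction test (added after their values were seen), and the 3 genes most like each DEG member, of which 1 is not reported here. The rule for the members used symbols only, but the members and gene lists were chosen with earlier results of these data known. Alternatives were a pseudocount of 0.1, a stricter filter (FPKM of 5) or none, no fold limit, TPM, upper-quartile and median-ratio scaling, no variance trend, a replicate block, only the groups compared, shares of summed log2 values, and leaving out each library.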

Additional observations from a re-analysis of the deposited data

Results flagged for a closer look

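These genes were selected because their response to LPS+ATP differed between genotypes by limma's interaction term, the Nlrp3-/- difference minus the wild-type difference on log2(FPKM + 1). It passed for 2 of 10 members and 18 of the 39 other pathway genes, 11 with a higher and 7 with a lower value, where 14.7% of all genes were higher and 13.0% lower. Among the members, the interaction was 0.23 for Cd14 (adjusted p = 0.000326) and 0.30 for Irak1 (adjusted p = 0.0138). Among the other pathway genes it was 0.60 for Irf7 (adjusted p = 1.03e-05), 0.31 for Pik3ap1 (adjusted p = 3.88e-05), 0.80 for Il1rl1 and 0.22 for Ikbke (adjusted p = 0.0214). Of these, Irf7, Pik3ap1 and Ikbke rose more in Nlrp3-/- on the log2 scale. Irf7 and Pik3ap1 stood lower in Nlrp3-/- in both states. Pik3ap1 was 118 and 203 FPKM in wild-type control and LPS+ATP, and 76.5 and 163 FPKM in Nlrp3-/-. The value for Il1rl1 is a description, since it passed the filter on low values only through its Nlrp3-/- libraries. The interaction was -0.51 for Peli1 (adjusted p = 0.00196) and -0.31 for Tank (adjusted p = 0.0123), which rose less in Nlrp3-/-, and 0.61 for Otulin (adjusted p = 0.000259) and 0.26 for Peli2 (adjusted p = 0.0334), which fell less. The other lower values were -0.55 for Dok3 (adjusted p = 2.27e-05), -0.43 for Ly86 (adjusted p = 0.000229), -0.42 for Traf6 (adjusted p = 0.00125), -0.29 for Chuk (adjusted p = 0.0277) and -0.29 for Tab3 (adjusted p = 0.0165). The other higher values were 0.35 for Cd180 (adjusted p = 0.000191), 0.34 for Cnpy3 (adjusted p = 0.00846), 0.24 for Hsp90b1 (adjusted p = 0.000502), 0.30 for Peli3 (adjusted p = 0.0378) and 0.18 for Ripk1 (adjusted p = 0.0271). Cd14 and Irak1 passed in 12 of 12 fits that left out 1 library. The value for Peli2, interaction of genotype and stimulation, did not pass in most fits without 1 library, without a filter (adjusted p = 0.0651), with TPM (adjusted p = 0.0676) or with a pseudocount of 0.1 (adjusted p = 0.102). That for Ikbke, interaction of genotype and stimulation, did not pass without the second Nlrp3-/- LPS+ATP library (adjusted p = 0.0517) or under upper-quartile scaling (adjusted p = 0.0543). That for Peli3, interaction of genotype and stimulation, did not pass under median-ratio scaling (adjusted p = 0.0763), upper-quartile scaling, a pseudocount of 0.1, no filter or a replicate block, nor in most fits without 1 library (adjusted p of up to 0.0877). That for Ripk1, interaction of genotype and stimulation, did not pass under upper-quartile scaling (adjusted p = 0.0858), with a replicate block, or without the second wild-type control, the second wild-type LPS+ATP, the third Nlrp3-/- control, or the second or the third Nlrp3-/- LPS+ATP library (adjusted p of up to 0.0642). That for Chuk, interaction of genotype and stimulation, did not pass without a filter (adjusted p = 0.0539) or without the second or the third wild-type control, the second or the third wild-type LPS+ATP or the second Nlrp3-/- control library (adjusted p of up to 0.0650).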

How the results depend on the processing

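FPKM gives no read depth, the libraries were 3 a group, and sex changed with genotype, so the results hold for these libraries alone. Of the 1521 refitted differences of single genes, 1400 kept their direction and side of the threshold, 60 lost the call, 23 gained it and 38 changed sign. Without a fold limit the members called were 9 and 7 with stimulation in wild-type and Nlrp3-/- (3 and 2 with it), 4 and 3 between genotypes in control and with LPS+ATP, and 2 for the interaction (0 with it in each). Members with an adjusted p under 0.05 between genotypes were 7 in control under median-ratio scaling (main 4), and with LPS+ATP 6 under upper-quartile and 8 under median-ratio scaling (main 3).

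Sign changes by scaling, in the order TPM where it applied, upper quartile and median ratio, were as follows. For "Tirap, stimulation in Nlrp3-/-" the values were 0.058, 0.10 and 0.23, and for "Ticam2, stimulation in Nlrp3-/-" 0.0038, 0.057 and 0.20. By upper quartile and median ratio, they were -0.026 and -0.12 for "Tirap, genotype in control", -0.049 and -0.15 for "Tlr4, genotype in control", -0.10 and -0.20 for "Cd14, genotype with LPS+ATP", and -0.084 and -0.18 for "Myd88, genotype with LPS+ATP". Single changes were 0.031 by median ratio for "Tlr4, stimulation in wild-type", 0.0082 by TPM for "Irak3, genotype with LPS+ATP" and -0.018 by upper quartile for "Irak3, interaction of genotype and stimulation". The median ratio scales each library by its median gene, which shifted the differences of a comparison together.

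Leaving out each library in turn spanned 0 for "Tlr4, stimulation in wild-type" (-0.79 to 0.45), "Tlr4, genotype in control" (-0.49 to 0.69), "Tirap, stimulation in Nlrp3-/-" (-0.043 to 0.026), "Tirap, genotype in control" (-0.024 to 0.13), "Irak1, genotype in control" (-0.063 to 0.024), "Irak2, genotype in control" (-0.035 to 0.43), "Ly96, genotype with LPS+ATP" (-0.22 to 0.0042), "Irak3, genotype with LPS+ATP" (-0.079 to 0.023), "Ly96, interaction of genotype and stimulation" (-0.14 to 0.081) and "Irak3, interaction of genotype and stimulation" (-0.031 to 0.098). None of these had passed the test.

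No label says that same-numbered libraries shared a mouse, batch or day. Their deviations from group means correlated at -0.057 to 0.053 over 18 pairs, and 4 of 12 libraries lay closest to their own number. These values do not show whether such libraries had a common source. With a replicate block the members called were 10 and 7 with stimulation and 4 and 4 between genotypes, Tirap being gained in wild-type stimulation and with LPS+ATP between genotypes, and 2 for the interaction.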
